A study of Mus musculus with 15 samples.

Results

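Ephrins, Eph receptors, semaphorins and plexins are the cell-surface and secreted molecules by which cells steer growth cones, vessels and migrating precursors, and 51 of the genes that encode them were examined for histone H3 lysine 27 acetylation (H3K27ac) in a mouse tumor driven by PAX3-FOXO1 (P3F). The members were the protein-coding genes of RefSeq whose symbols belong to these families, 51 of 21000 protein-coding genes. They comprised 14 Eph receptors, 9 plexins, 8 ephrins and 20 semaphorins, so 23 genes encoded receptors and 28 encoded ligands.

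The series held 15 CUT&RUN libraries, 9 of them for H3K27ac (6 from MCP and 3 from TCP tumors) and the remaining 6 with control IgG (3 from each tumor type). MCP tumors carried Myf6-Cre, which acts in the muscle lineage, TCP tumors carried Tek-Cre, which acts in the endothelial lineage, and both also carried Cdkn2a(Flox/Flox), Pax(3P3F/P3F) and R26-tdTom, written here as the labels spell them. The values come from a single peak list of an MCP H3K27ac library, replicate 5, made from sorted cells of digested tumor, and the age of the animal is not given in the sources used here. There was no replicate, so no difference could be tested. CUT&RUN cuts out the DNA next to the antibody, and a peak marks a place where those fragments exceed the background. H3K27ac is a mark of active promoters and enhancers, and a peak near a gene does not measure the gene's RNA.

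The list held 122375 peaks with a median fold enrichment of 5.22 over the local background. The median peak rested on 13 fragments at its summit (quartiles 10 and 17). Intervals given below are exact Poisson 95% intervals of the fragment number and cover counting error only. Of 10 myogenic marker genes, Pax3 (best promoter fold 18.1) and Myf6 (5.97) had a promoter peak (20%, against 45.6% of all genes). In these mice P3F is expressed from the Pax3 promoter, so the Pax3 peaks cannot be told apart from an effect of the engineered allele. Myod1, Myog and Pax7 had no peak in the gene or in the 20 kb beside it. The other markers had window peaks, 15 at Myf5, 14 at Myf6, 38 at Pax3, 8 at Fgfr4, 7 at Des, 6 at Chrna1 and 1 at Cdh15, and the list had a median of 12.4 peaks per 100 kb against 4.85 over all genes. Of 10 markers each, 1 endothelial gene (Cd34) and 1 immune gene (Cd68) had a promoter peak. Most markers had CpG-poor start sites, with an observed over expected CpG ratio under 0.6. Among the CpG-poor markers 1 of 6 myogenic, 1 of 9 endothelial and 1 of 10 immune genes had a promoter peak, against 20.1% of all CpG-poor genes. Among CpG-rich markers it was 1 of 4 myogenic and 0 of 1 endothelial genes, against 70.9% of all CpG-rich genes. A window peak was present at 7 of the myogenic, 9 of the endothelial and 6 of the immune markers, against 68.7% of all genes. The median density was 4.28 peaks per 100 kb in the endothelial list and 1.36 in the immune list. The part of other cells in the values below was not tested.

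Ephs are receptor tyrosine kinases that bind ephrins on neighboring cells, and signal passes in both directions at the contact. Plexins are single-pass receptors that bind semaphorins, often together with a neuropilin or another co-receptor, and act on small GTPases. In the embryo these systems guide axons, vessels and the muscle precursors that leave the somites.

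The sequences below are the 200 bases round the summit of the strongest promoter peak for the 3 receptors and the 3 ligands with the highest promoter fold, shown because these are the strongest acetylated promoters of the set. They are read from the GRCm38 (mm10) reference, plus strand, and capitals mark each CpG dinucleotide.
Plxnb2 chr15:89179885-89180084: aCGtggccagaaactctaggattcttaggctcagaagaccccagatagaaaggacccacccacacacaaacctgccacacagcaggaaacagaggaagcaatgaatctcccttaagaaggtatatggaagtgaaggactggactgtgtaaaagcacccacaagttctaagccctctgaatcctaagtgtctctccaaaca
Plxnd1 chr6:115995133-115995332: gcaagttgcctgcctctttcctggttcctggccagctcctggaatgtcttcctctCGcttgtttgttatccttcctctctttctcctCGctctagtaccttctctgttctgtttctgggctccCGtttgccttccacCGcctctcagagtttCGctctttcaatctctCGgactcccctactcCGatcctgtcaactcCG
Plxnb1 chr9:109096037-109096236: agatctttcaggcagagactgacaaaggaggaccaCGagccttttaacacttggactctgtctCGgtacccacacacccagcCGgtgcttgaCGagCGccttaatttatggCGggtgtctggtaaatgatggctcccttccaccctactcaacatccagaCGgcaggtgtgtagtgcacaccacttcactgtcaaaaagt
Efna1 chr3:89278813-89279012: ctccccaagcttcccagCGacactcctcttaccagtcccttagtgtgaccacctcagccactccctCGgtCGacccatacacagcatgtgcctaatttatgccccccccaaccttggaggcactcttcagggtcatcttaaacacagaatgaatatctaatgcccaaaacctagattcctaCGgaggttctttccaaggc
Sema4c chr1:36559203-36559402: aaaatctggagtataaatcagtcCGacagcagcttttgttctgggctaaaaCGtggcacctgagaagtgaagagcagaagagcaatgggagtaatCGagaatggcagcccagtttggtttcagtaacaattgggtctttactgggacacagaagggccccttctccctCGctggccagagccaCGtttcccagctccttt
Sema4b chr7:80187408-80187607: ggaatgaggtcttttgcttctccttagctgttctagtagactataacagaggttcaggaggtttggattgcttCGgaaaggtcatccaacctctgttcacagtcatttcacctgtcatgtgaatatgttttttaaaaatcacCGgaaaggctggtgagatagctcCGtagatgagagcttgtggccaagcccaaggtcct

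None of these 6 windows holds any of the 6 motifs searched, which are spelled out with the motif counts. The windows hold between 1 CpG (Plxnb2) and 8 CpGs (Plxnd1). No part of any sequence shown lies in an annotated exon.

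A promoter peak, taken as a peak overlapping 2 kb either side of a RefSeq start site, was present at 20 of the 51 members (39.2%). The same was true of 45.6% of all protein-coding genes, so the members' share lay a little below the background. In bulk chromatin, fewer cells with an active promoter and less acetylation per cell cannot be told apart. A peak anywhere in the gene or within 20 kb was present at 42 members (82.4%), against 68.7% of all protein-coding genes. The median window of the members was 69.0 kb and that of all genes 56.7 kb, so the members had more sequence in which to hold a peak. Per 100 kb of window the members had a median of 3.78 peaks (upper quartile 14.8) and all genes 4.85 (upper quartile 13.3). The members thus reached a window peak more often than genes at large, with no higher median density. Both statements depended on the setting. With the strongest 25% of peaks, 47.1% of members had a window peak, against 52.4% of all genes. Without peaks at or in another gene, the median density was 2.97 per 100 kb in receptors and 1.8 in ligands, against 1.57 over all genes.

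The CpG content of the start site set the 2 sets further apart. CpG content was taken as the observed over expected ratio in 500 bases either side of the start. Among genes with a ratio of at least 0.6, a promoter peak was present at 17 of 37 members (45.9%) and at 70.9% of all genes. Among CpG-poorer genes it was present at 3 of 14 members (21.4%) and at 20.1% of all genes. Where a promoter peak was present, its best fold had a median of 6.37 in the members and 7.24 over all genes, and 6 of the 20 members exceeded the latter. At least 2 promoter peaks were present at 16 of the 51 members, against 35.3% of all genes.

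**Figure D1:**
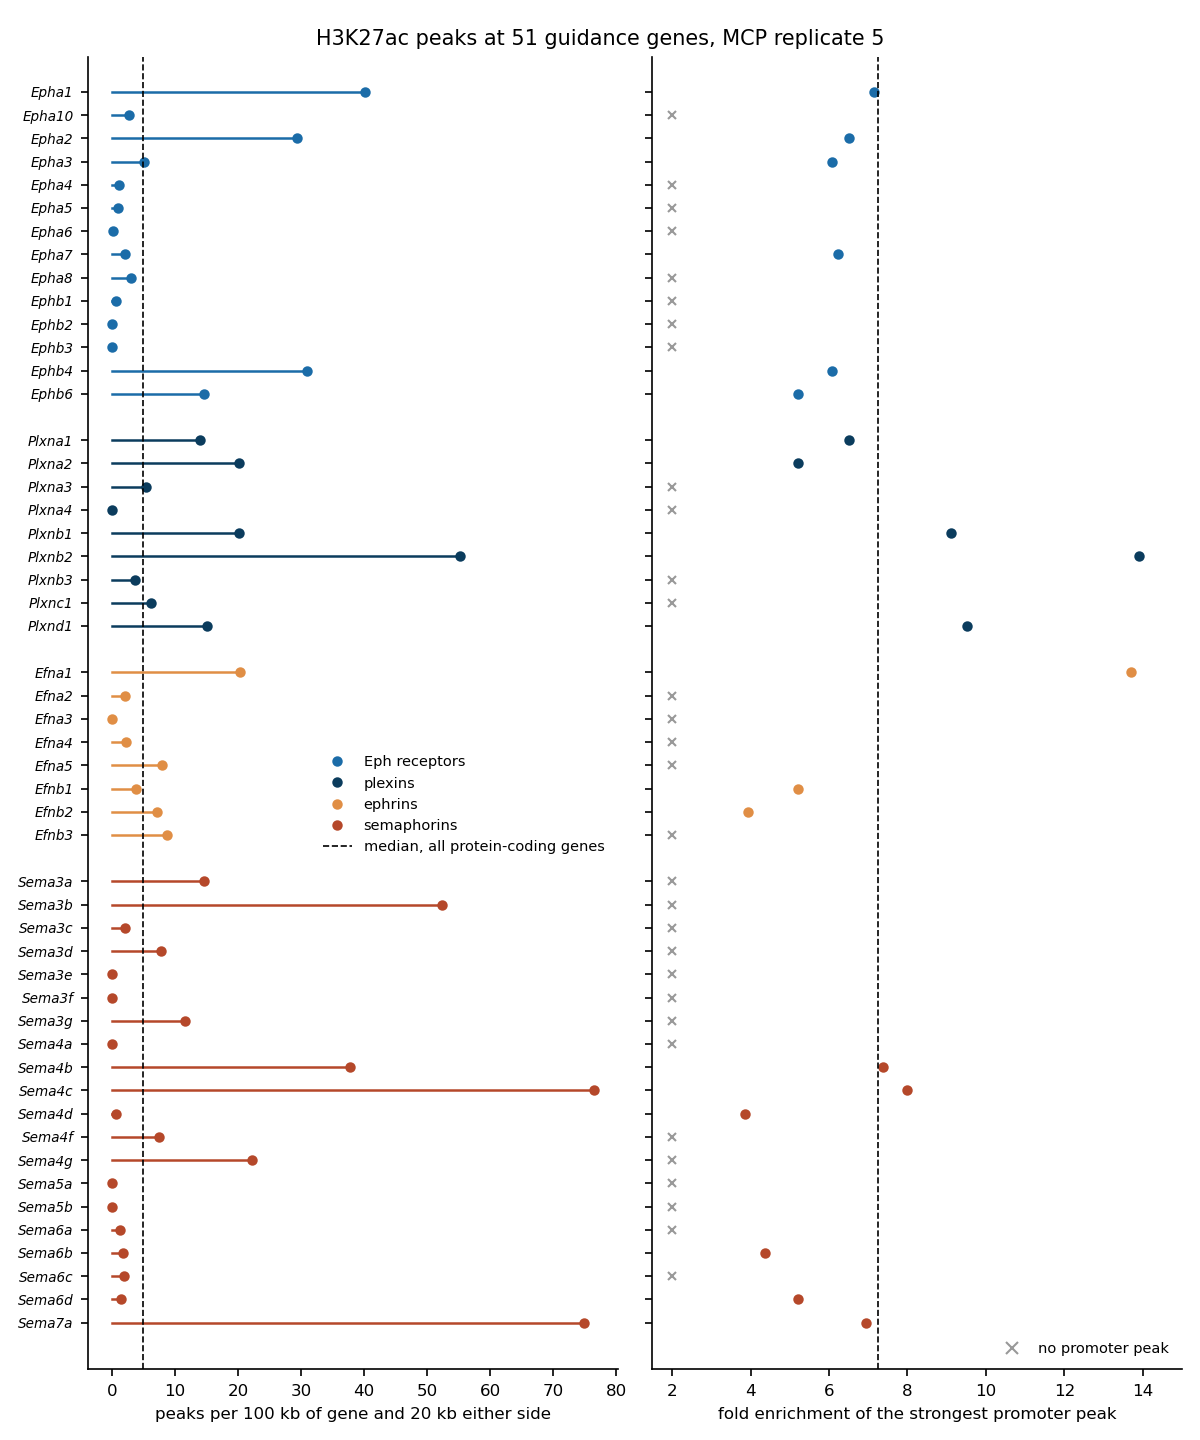
Each row is 1 of the 51 members, coloured by family. The left panel gives H3K27ac peaks per 100 kb of the gene with 20 kb either side, the right panel the fold enrichment of the strongest promoter peak, a cross marks a gene with no promoter peak, and dashed lines are the medians over all protein-coding genes (4.85 and 7.24). Sema4c and Sema7a reach 76.4 and 74.9 peaks per 100 kb, and Plxnb2 and Efna1 have the strongest promoter peaks.

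Receptors and ligands were then compared. A promoter peak was present at 11 of 23 receptors (47.8%) and at 9 of 28 ligands (32.1%), a difference of 15.7 percentage points. Receptors were thus close to the 45.6% of all genes and ligands below it. A window peak was present at 20 receptors (87.0%) and 22 ligands (78.6%), against 68.7% of all genes. The median window was 80.2 kb in receptors and 66.6 kb in ligands, so receptors had more sequence in which to hold a peak. The median density was 4.99 peaks per 100 kb in receptors and 3.01 in ligands, a difference of 1.98 that turned to −3.36 with 50 kb either side of the gene and to −0.477 without Efna2 and Sema6c, which lie beside skipped peak numbers. In the 20 kb windows the pooled density had the opposite order, 5.3 in receptors and 7.36 in ligands, whose peaks included 47 at Sema7a, 38 at Sema4c and 36 at Sema3a. The best promoter fold had a median of 6.51 in receptors (range 5.22 to 13.9) and 5.22 in ligands (range 3.85 to 13.7), and both ranges overlapped over most of their length.

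The difference in promoter peaks rested on a few chromosomes. Chromosomes 1, 6, 11 and 15 held 5.5 to 7.94 peaks per 100 kb, more than any other chromosome, and carry 12 members. On these 4 chromosomes 6 of 8 receptors and 1 of 4 ligands had a promoter peak. On the other chromosomes 5 of 15 receptors (33.3%) and 8 of 24 ligands (33.3%) had a promoter peak, so the difference there was 0. Both shares lay below the 44.2% of all genes on those other chromosomes. The share of all genes on the 4 dense chromosomes was not taken, so 6 of 8 has no background beside it. Chromosome X held 0.996 peaks per 100 kb, and its 3 members Efnb1, Plxna3 and Plxnb3 had 7 peaks in all, of which 1 was at a promoter, that of Efnb1. The part of the chromosomes' own peak density in these values was not tested. The start sites of receptors also had more CpGs, with a median ratio of 0.771 against 0.669 in ligands. Among CpG-rich genes 10 of 18 receptors (55.6%) and 7 of 19 ligands (36.8%) had a promoter peak, both below the 70.9% of all CpG-rich genes.

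**Figure D2:**
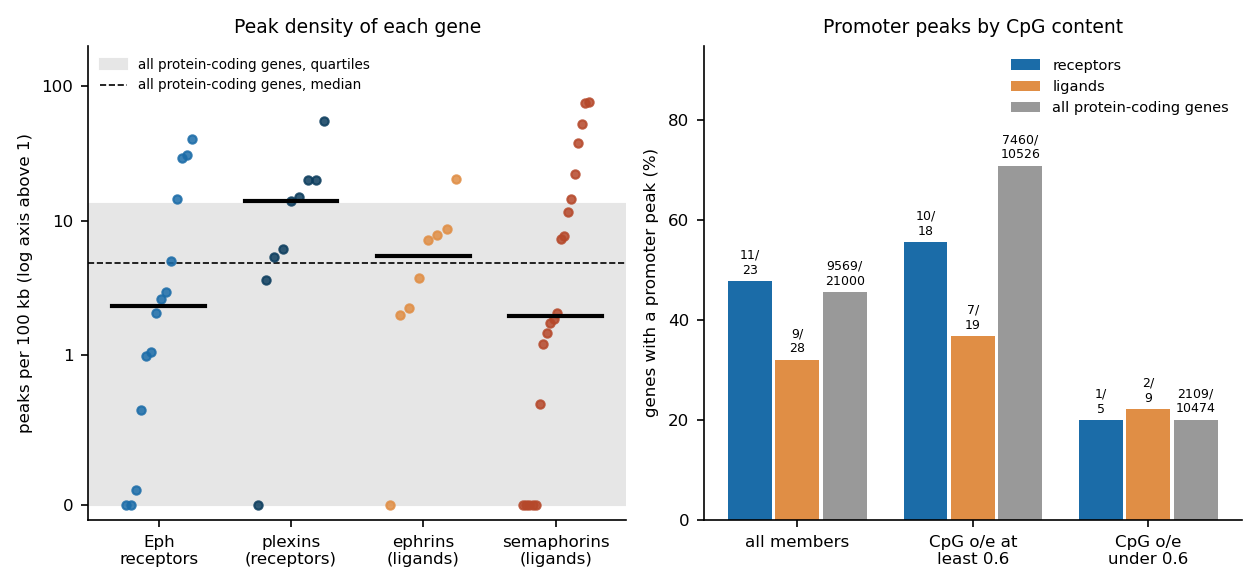
Left, peaks per 100 kb of each gene by family on an axis that is logarithmic above 1, with black bars for family medians and the grey band and dashed line for the quartiles and median of all protein-coding genes; right, the share of genes with a promoter peak for receptors, ligands and all protein-coding genes, in all and by CpG observed over expected ratio (o/e). Plexins have the highest median, 13.9, and ligands fall below all genes among CpG-rich promoters, at 36.8% against 70.9%.

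Plexins had the highest share of promoter peaks and the highest median density of the 4 families. A promoter peak was present at 5 of 9 plexins (55.6%), a window peak at 8, and the median density was 13.9 peaks per 100 kb. All 5 plexins with a promoter peak were among the 7 CpG-rich plexins (71.4%), close to the 70.9% of CpG-rich genes in general. Of these, Plxna1, Plxna2, Plxnb2 and Plxnd1 lie on chromosomes 1, 6 and 15, which are dense in peaks. Off the dense chromosomes Plxnb1 had a promoter peak and Plxna3, Plxnb3 and Plxnc1 had none, against 44.2% of all genes there. The part of the chromosomes in the plexins' lead was not tested. Plxnb2, a receptor of class 4 semaphorins, had the strongest promoter peak of all 51 members, at chr15:89179089-89180450, with a fold of 13.9 and 32 fragments (interval 21.9 to 45.2). Its summit lay 803 bp into the gene, in an intron. Around its start sites 12 promoter peaks were called with folds from 4.01 to 13.9, and the window held 36 peaks that covered 20.3% of its length. Of these 36 peaks 10 lay inside a neighboring gene (other genes are counted here where protein-coding), namely 5 in Dennd6b, 3 in Mapk11 and 2 in Mapk12, and 23 lay neither inside nor at the promoter of another gene.

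Plxnd1, the receptor of Sema3e on endothelial cells, had 4 promoter peaks. The strongest had a fold of 9.53 on 22 fragments (interval 13.8 to 33.3) and lay 228 bp upstream of the start. Plxnb1, a receptor of Sema4d, had a promoter fold of 9.10 on 20 fragments, 701 bp into the gene, and a weaker peak of 7.37. Plxna1 (6.51) and Plxna2 (5.22), receptors for class 3 and class 6 semaphorins, had modest promoter peaks. Plxna2 was acetylated inside the gene instead: it held 48 peaks, more than any other member, of which 44 lay in the gene body outside the promoter. The strongest were at chr1:194642156-194642688, with a fold of 14.4 on 33 fragments (interval 22.7 to 46.3), and at chr1:194651453-194653137, with a fold of 13.4 on 30 fragments. Both were intronic, 22.4 and 32.4 kb from the nearest start.

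Plxnc1, the receptor of Sema7a, had 12 peaks in its window and none at the promoter. Plxna3 had 3 peaks and Plxnb3 had 2, all of them inside other genes. Plxna4 had no peak in the gene or within 20 kb, and its nearest summit was 208 kb away.

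Eph receptors had promoter peaks at 6 of 14 genes (42.9%) and window peaks at 12, with a median of 2.34 peaks per 100 kb. Their best promoter folds ran from 5.22 to 7.16, so none reached the all-gene median of 7.24. Epha1 had a promoter fold of 7.16 on 16 fragments and 22 window peaks, of which 9 lay inside the neighbor Zyx and 4 more at its promoter, so 9 peaks were at neither the body nor the promoter of another gene. Epha2, which binds Efna1, had promoter peaks of 6.51 and 3.79 and 20 window peaks, none of them inside another gene, for a density of 29.3 per 100 kb. Its peaks crowded into the 5′ part of the gene, with the strongest of the window 13.3 kb upstream (fold 9.10 on 20 fragments). Ephb4, the venous receptor of Efnb2, also had 20 window peaks, with a promoter fold of 6.08.

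Epha3 held the strongest peak of the whole set away from a promoter. It lay at chr16:63857619-63858165, in an intron 6.48 kb from the start, with a fold of 17.7 on 40 fragments (interval 28.6 to 54.5). The interval overlapped those of the strongest peaks of Plxnb2, Efna1 and Plxna2, so the order among them is not resolved by the depth. The 3 promoter peaks of Epha3 were weaker, the best at 6.08. Epha7 had 4 peaks, all at the promoter (best fold 6.23 on 20 fragments), and Ephb6, which lacks kinase activity, had 2 promoter peaks (5.22) besides 6 peaks inside Trpv6. Epha4, Epha5, Epha6, Epha8, Epha10 and Ephb1 had 1 to 4 window peaks and none at the promoter. Ephb2 and Ephb3 had no peak within 20 kb, with the nearest summits 130 and 128 kb away. By subclass, a window peak was present at 9 of 9 EphA and 3 of 5 EphB genes, against 68.7% of all genes. The median window was 188 kb in EphA, 64.4 kb in EphB and 56.7 kb in all genes, so EphA genes had more sequence in which to hold a peak. Their median densities were 2.63 and 0.635 peaks per 100 kb, both below the 4.85 of all genes. The window peaks of Epha6 and Epha10 lay at the promoters of other genes, that of Epha6 at Arl6 and those of Epha10 at Cdca8 and 9930104L06Rik.

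Among ephrins 3 of 8 genes had a promoter peak (37.5%) and 7 had a window peak, with a median of 5.47 peaks per 100 kb. Efna1, a GPI-anchored ligand of EphA receptors, had 6 promoter peaks. The strongest was at chr3:89277920-89279173, with a fold of 13.7 on 35 fragments (interval 24.4 to 48.7), in an intron 732 bp from the nearest start, and the other 5 had folds of 4.54 to 5.65. The transmembrane ligands Efnb1 (5.22 on 11 fragments) and Efnb2 (3.93 on 8 fragments) had promoter peaks at and below the median fold of the whole peak list, 5.22. Efna5 had no promoter peak but 25 window peaks, 22 of them in its own body, where the strongest (fold 8.24 on 18 fragments) lay 194 kb from the start. Its nearest summit lay 2.47 kb from a start, just outside the promoter window, while the promoter peaks of Sema7a, at 1.44 kb and beyond, were among the farthest inside it. Efna2 and Efna4 had 1 window peak each, inside a neighboring gene, and the 4 peaks of Efnb3 were all inside Wrap53. Efna3, which lies between Efna1 and Efna4, had none. The numbering of the peaks skips 12 entries beside Efna2, so its count may be too low.

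Semaphorins spread most widely. A promoter peak was present at 6 of 20 genes (30.0%) and a window peak at 15, the median was 1.96 peaks per 100 kb, and yet the 2 densest members of the whole set were semaphorins. Sema4c, a ligand of Plxnb2, had 8 promoter peaks (best 7.98 on 19 fragments, 922 bp upstream) and 38 window peaks at 76.4 per 100 kb, although 20 of the 38 lay inside other genes, 15 of them in Fam178b, and 13 were neither inside nor at the promoter of another gene. Sema7a, the GPI-anchored ligand of Plxnc1 and of integrins, had 47 window peaks at 74.9 per 100 kb, none of them inside another gene, and they covered 26.3% of the window. Its promoter peaks were 1.86 and 1.44 kb upstream (best fold 6.94 on 15 fragments), 26 peaks lay in the gene body with folds of up to 11.9, and 18 lay in the 3′ flank with folds of up to 11.5. Sema4b had 10 promoter peaks (best 7.37 on 16 fragments) and 30 window peaks, of which the strongest was intronic with a fold of 12.1 on 27 fragments (interval 17.8 to 39.3).

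The secreted class 3 semaphorins, which signal through neuropilins and plexins, had a promoter peak at 0 of 7 genes, against 45.6% of all genes. Of the 7, 4 were CpG-rich, where 70.9% of all genes had one, and 3 CpG-poor, where 20.1% did. A window peak was present at 5 of the 7, against 68.7% of all genes, with a median window of 195 kb against 56.7 kb. Sema3a nevertheless had 36 window peaks, all outside other genes, the strongest at chr5:13526736-13527728 with a fold of 9.96 on 22 fragments, 128 kb from the nearest start. Sema3d had 19 peaks, all in its body. The 27 peaks of Sema3b lay mostly in Gnai2 (22 peaks) and 25 of them were inside other genes. The 6 peaks of Sema3g included 5 inside Nisch, with a fold of up to 16.1, and those of Sema3c numbered 4. In class 4, Sema4d had 1 weak promoter peak (3.85 on 9 fragments), Sema4f had 5 peaks in the 3′ flank, and 10 of the 12 peaks of Sema4g were inside other genes. In class 6, Sema6b (4.36) and Sema6d (5.22) had promoter peaks, and Sema6a and Sema6c had 2 and 1 window peaks, with 1 skipped peak number in an interval that spans Sema6c. Sema3e, Sema3f, Sema4a, Sema5a and Sema5b had no peak within 20 kb, with nearest summits from 27.6 kb (Sema4a) to 531 kb (Sema5a).

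**Figure D3:**
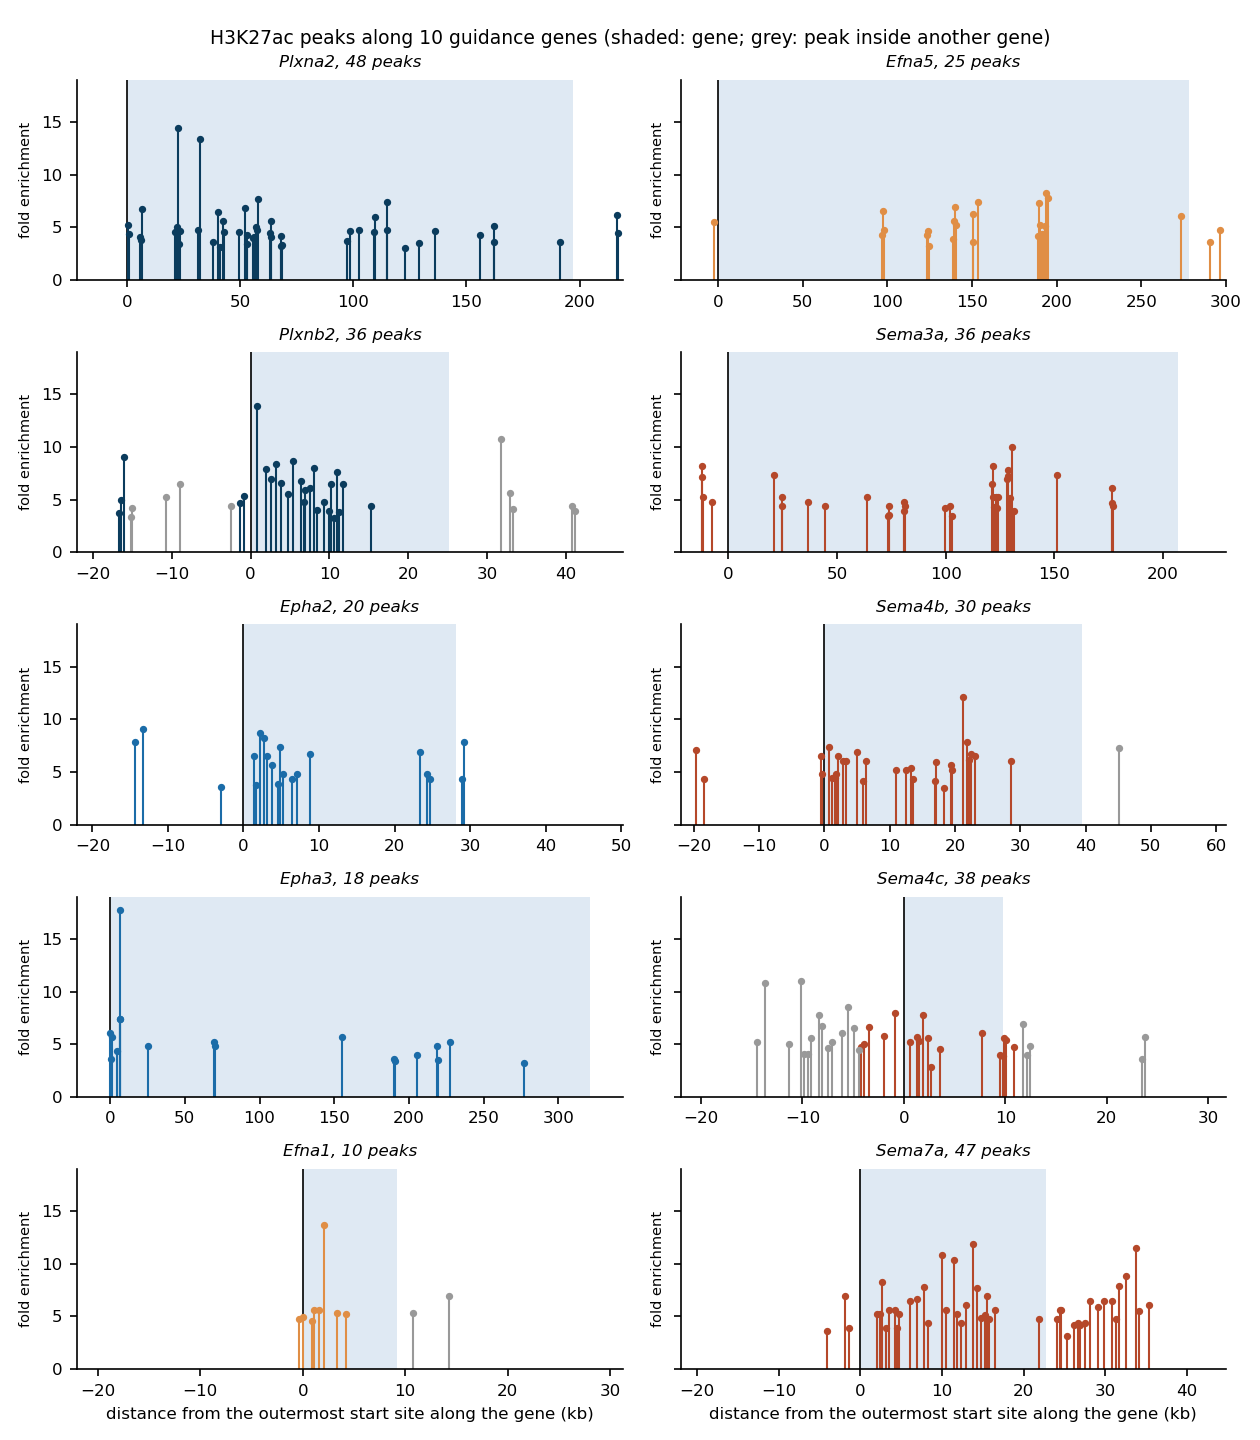
H3K27ac peaks along 10 members, each stem a peak at its distance in kb from the outermost start site in the direction of transcription, with its fold enrichment as height; shading marks the gene, and grey stems are peaks inside another gene. Plxna2, Efna5 and Sema3a carry most peaks deep in the gene, Plxnb2 and Efna1 have their tallest peak near the start, and 20 of the 38 peaks of Sema4c are grey.

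Several known partners could be read side by side. Efna1 (10 window peaks) and its receptor Epha2 (20) both had promoter peaks, as did Ephb4 (20) and Efnb2 (6), and Plxnb2 (36) and Sema4c (38). Plxnd1 had 12 peaks and 4 at its promoter, whereas its ligand Sema3e had none. Sema7a had 47 peaks with 2 at the promoter, and Plxnc1 had 12 with none there. Plxnb1 had 13 peaks and Sema4d 1, both with a promoter peak. Ligand and receptor peaks come from the same bulk of sorted cells, so they do not say whether 1 cell carries both.

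Of the 531 peaks in the windows, 71 (13.4%) lay at promoters, 271 (51%) in gene bodies, 88 (16.6%) in the 5′ flank and 101 (19%) in the 3′ flank. By summit, 73.4% of the member peaks and 61.5% of all peaks lay in introns, the largest class in both. Intergenic summits made up 18.8% and 33.2%. The member windows are drawn round genes, so these shares are not directly comparable. No peak was shared by a pair of members. Peaks were concentrated in few genes, since the 5 members with most peaks (Plxna2, Sema7a, Sema4c, Plxnb2 and Sema3a) held 205 (38.6%) and the top 10 held 329 (62.0%). Gene-body peaks made up 57.0% of the 244 receptor peaks and 46.0% of the 287 ligand peaks, and 5′ flank peaks 9.02% and 23.0%. The median gene length was 40.2 kb in receptors and 26.6 kb in ligands, so receptors had more gene body to hold peaks. Of the 66 ligand peaks in the 5′ flank, Sema3b held 24 and Sema4c 18, most of them inside Gnai2 or Fam178b. Of the ligand peaks 24.7% lay inside another gene and of the receptor peaks 15.2%, so more of the ligand peaks cannot be assigned to the member alone. The median fold of member peaks, 5.22, equaled that of the whole list.

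Gene-body peaks were the largest class, and the windows below show the 2 strongest gene-body peaks of receptors and of ligands outside other genes. Their coordinates and strand are given as above and capitals again mark CpG dinucleotides.
Epha3 chr16:63857596-63857795: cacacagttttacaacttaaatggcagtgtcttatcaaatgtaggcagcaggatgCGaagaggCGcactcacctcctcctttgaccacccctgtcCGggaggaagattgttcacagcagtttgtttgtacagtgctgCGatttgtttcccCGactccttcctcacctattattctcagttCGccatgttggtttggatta
Plxna2 chr1:194642135-194642334: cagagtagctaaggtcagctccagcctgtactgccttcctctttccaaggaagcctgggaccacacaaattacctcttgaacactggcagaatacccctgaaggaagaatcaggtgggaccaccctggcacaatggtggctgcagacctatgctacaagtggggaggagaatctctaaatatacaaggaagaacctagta
Sema4b chr7:80207955-80208154: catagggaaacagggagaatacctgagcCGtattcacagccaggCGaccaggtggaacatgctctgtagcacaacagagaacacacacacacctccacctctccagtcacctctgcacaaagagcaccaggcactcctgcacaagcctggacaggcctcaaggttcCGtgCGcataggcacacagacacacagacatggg
Sema7a chr9:57953857-57954056: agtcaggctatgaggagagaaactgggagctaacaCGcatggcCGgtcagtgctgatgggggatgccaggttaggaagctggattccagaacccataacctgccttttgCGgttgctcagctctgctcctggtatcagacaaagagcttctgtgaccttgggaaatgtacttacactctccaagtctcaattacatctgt

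These windows hold between 0 CpGs (Plxna2) and 6 CpGs (Epha3), and none of the 6 motifs.

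Motifs were counted on both strands in 200 bases round the summit of the 71 member promoter peaks and of the 24946 promoter peaks of all genes. The E-box CAGCTG, bound by myogenic bHLH factors, was in 3 member windows (4.23%) against 8.79% of all. The PAX homeodomain dimer motif was in 0 against 0.325%, the PAX paired-domain core GTCACG in 1 (1.41%) against 3.30%, and the forkhead motif GTAAACA in 1 (1.41%) against 2.78%. The AP-1 motif TGANTCA was in 4 (5.63%) against 4.71%, and the GC box GGGCGG in 10 (14.1%) against 9.59%. No motif contains another, although the end of an AP-1 match can share bases with a paired-domain match. A match is a run of letters and not evidence of binding. The 3 windows with an E-box are printed below with the motif in capitals. They belong to weaker promoter peaks of Epha2 (fold 3.79), Plxnb2 (4.68) and Sema4b (5.23).
Epha2 chr4:141302749-141302948: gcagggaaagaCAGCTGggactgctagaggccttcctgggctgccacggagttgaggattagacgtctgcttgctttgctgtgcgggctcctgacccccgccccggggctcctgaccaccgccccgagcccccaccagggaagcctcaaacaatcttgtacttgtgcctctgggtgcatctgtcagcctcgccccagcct
Plxnb2 chr15:89181998-89182197: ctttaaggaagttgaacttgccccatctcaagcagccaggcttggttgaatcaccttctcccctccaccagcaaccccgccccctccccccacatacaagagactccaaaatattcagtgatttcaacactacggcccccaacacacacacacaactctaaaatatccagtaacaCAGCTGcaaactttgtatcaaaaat
Sema4b chr7:80199318-80199517: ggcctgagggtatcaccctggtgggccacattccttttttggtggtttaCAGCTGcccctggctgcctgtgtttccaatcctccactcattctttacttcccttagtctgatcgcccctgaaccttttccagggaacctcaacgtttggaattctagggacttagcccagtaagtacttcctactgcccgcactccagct

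Genes that work with these receptors had promoter peaks in a larger share than the receptors themselves, a difference that was not tested. Of 10 co-receptors 6 had a promoter peak (60.0%, against 45.6% of all genes). Among their 6 CpG-rich genes 5 had one, against 70.9% of all CpG-rich genes. The co-receptors with a promoter peak were the neuropilins Nrp2 (best fold 11.2, 58 window peaks) and Nrp1 (5.65, 22 peaks), the receptor tyrosine kinases Met (9.96, 48 peaks) and Erbb2 (8.67), and the integrins Itgb1 (9.10) and Itga1 (7.37). Nrp2, Met and Erbb2 lie on the peak-dense chromosomes 1, 6 and 11. Timd2, also on chromosome 11, had no window peak, and L1cam, Nrcam and Cd72 had no promoter peak either. Of 25 effectors of plexins and semaphorins 21 (84.0%) had a promoter peak, against 45.6% of all genes. Most of these effectors had CpG-rich start sites, where 17 of 20 had a promoter peak, against 70.9% of all CpG-rich genes. They included the GTPase Rac1 (13.4), the kinase Gsk3b (14.8), Dpysl3 of the collapsin response mediator family (9.76) and the plexin-linked exchange factor Farp1 (7.27, 90 window peaks). The 4 without a promoter peak were Rnd1, Dpysl4, Dpysl5 and Crmp1. Of 25 Eph and ephrin effectors 16 (64.0%) had a promoter peak, against 45.6% of all genes. Among the 18 with CpG-rich start sites 14 had one (77.8%), near the 70.9% of all CpG-rich genes. Effectors with a promoter peak included the GTPase-activating protein Rasa1 (14.3), the phosphatase Ptpn11 (12.1), the scaffold Sdcbp (11.2) and the kinase Src (8.64, 41 window peaks).

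**Figure D4:**
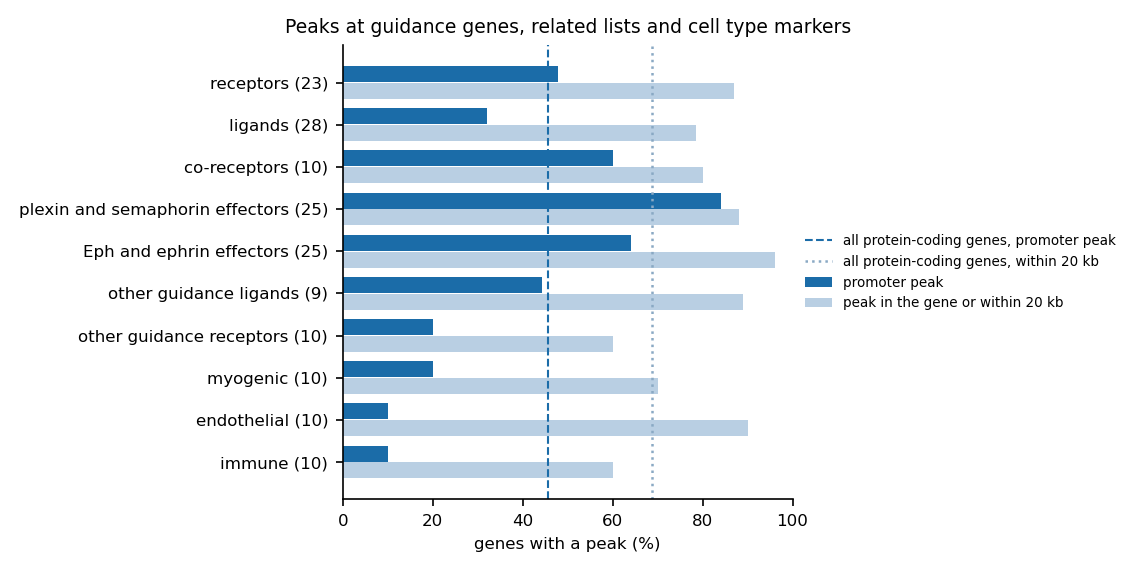
Share of genes with a promoter peak (dark) and with a peak in the gene or within 20 kb (light) for receptors, ligands, 5 related lists and 3 cell type marker lists, with list sizes in brackets and the shares over all protein-coding genes as lines (45.6% and 68.7%). Effectors of plexins and semaphorins stand highest for promoter peaks at 84.0%, and promoter peaks reach at most 20.0% of the marker lists shown. Most marker genes are CpG-poor, and 20.1% of all CpG-poor genes had a promoter peak.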

How the data were processed

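Of 15 libraries, the values come from 1 deposited peak list, of the MCP H3K27ac library whose title gives replicate 5. Its description gives number 1. The methods of the study name bowtie, mm10, removal of problematic regions and an amplified region near Col19a1, and MACS against each tumor's own IgG, whereas the submitters' processing notes name BWA, SAMtools, MACS2 and the builds mm10 and dm6; which were used for this list is not settled here. The deposited score is a whole number per peak. The authors' caller gave the fold enrichment as a ratio to the local background, and the deposited −log10 p and −log10 q describe the summit. The largest q was 0.0471. The numbering of the peaks skips 584 entries.

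Fragments at each summit were recovered from the fold and the −log10 p with a scale of 0.885, which gave whole numbers in all peaks but 1 (tolerance 0.002 on −log10 p). The scale was fitted on a sample of the weaker peaks, and in that sample a scale 3% off gave whole numbers in 0.375%. For 98.7% of all peaks only 1 fragment number solved both the fold and the −log10 p. They are inferences and not read counts.

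Curated RefSeq transcripts of GRCm38 defined start sites and genes. Promoters were 2 kb either side of a start site and windows the gene with 20 kb either side, with an overlap of at least 1 bp. Distances are to the nearest start site. All members were accounted for, and fuller values were meant for the 3 members of each family with the strongest promoter peak and with most peaks. Further members were described after their values were seen. The members and lists were chosen with earlier results of these data known, and the gene-body and E-box sequences were chosen after the values were seen. The result of a further marker list is not reported here. The steps were tested on simulated data. Python 3.11.15, pandas 2.3.3 and pysam 0.24.0 were used.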

Additional observations from a re-analysis of the deposited data

How the results depend on the processing

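With 1 library, an alternative changes the peaks, windows or genes counted and gives no test. No paired analysis was possible because only 1 sample had a file. Members with a promoter peak fell from 20 to 13 (25.5%) at a −log10 q of at least 5 and to 9 (17.6%) with the strongest 25% of peaks. All genes fell to 37.9% and 29.3%. Members with a window peak fell from 42 to 24 (47.1%) with the strongest 25%, below the 52.4% of all genes. At a −log10 q of at least 5 the members' share was 66.7%, against 61.6% of all genes. The members' higher share of window peaks thus did not hold among the strongest peaks. The receptor minus ligand difference in window peaks grew from 8.39 to 29.0 percentage points at a −log10 q of at least 5, 17.2 with the strongest 25% of peaks and 15.2 in the gene body alone, and shrank to 2.02 with 50 kb either side. The difference in median density, 1.98 peaks per 100 kb, was 0.514 with the strongest 25% of peaks, 0.948 in the gene body alone, 0.824 without chromosomes 1, 6, 11 and 15 and 1.17 without peaks at or in another gene. In that last setting the medians of receptors (2.97) and ligands (1.8) both lay above the 1.57 of all genes. The difference turned to −3.36 with 50 kb either side and to −0.477 without the 2 ligands beside absent peak numbers (Efna2 and Sema6c), so the order of receptors and ligands in density depends on the window and on those 2 genes. The difference in promoter peaks was 24.8 points at a −log10 q of at least 5, 26.4 with only the outermost start of each gene, 7.45 with the strongest 25%, and 0 without the 4 chromosomes. The alternatives on other genes, predicted transcripts and absent numbers were chosen after seeing the data. Peaks under 7 fragments were not in the list, so a gene without a peak may carry weaker acetylation than this depth could show.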

Other observations

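Guidance genes of the netrin, Slit and repulsive guidance families are given as values, with no test. Of 9 ligands 4 had a promoter peak (44.4%), close to the 45.6% of all protein-coding genes: Ntn1 (best fold 5.13, 42 window peaks), Ntn4 (6.51, 25 peaks), Ntn5 (5.65, 22 peaks) and Rgmb (10.8, 19 peaks). The Slit ligands Slit1, Slit2 and Slit3 had 4, 2 and 4 window peaks and none at a promoter. Of 10 receptors 2 had a promoter peak (20.0%), Neo1 (6.66, 9 peaks), which binds netrins and repulsive guidance molecules, and Unc5b (6.08, 17 peaks). Robo3, Robo4, Dcc and Unc5d had no peak in the gene or within 20 kb, while Robo1 and Robo2 had 6 and 11.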
